A study of Homo sapiens with 6 samples.

Results

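ABC proteins are ATPases, and most of them move lipids, drugs, conjugates, peptides or metals across membranes. Their genes were chosen by symbol, as every gene named ABC followed by a subfamily letter from A to G and a number. Of the 57820 genes listed, 46 met this rule, with 12 in subfamily ABCA, 9 in ABCB, 12 in ABCC, 4 in ABCD, 1 in ABCE, 3 in ABCF and 5 in ABCG. Gene expression was measured by stranded RNA-seq in AID-DIvA cells (AID-DivA in the labels), an osteosarcoma line derived from U2OS that carries an inducible AsiSI restriction nuclease with a degron. Both genotypes carried the nuclease and all samples were untreated, so that it was not induced. The 3 WT samples, numbered 3 to 5, kept ARID1A, a subunit of the SWI/SNF chromatin remodeler that binds DNA. The 3 ARID1A-KO samples, also numbered 3 to 5, came from cells in which Cas9 and a pair of guide RNAs had disrupted ARID1A. The replicates are described as biological replicates from independent experiments. The sources do not say which knockout clone was sequenced, so the knockout samples may share a clone, and p-values measure the spread between these samples.

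Total counts on genes were between 54512105 and 84088708 per sample, and the genotypes overlapped in depth. ARID1A, the check of the labels, had 166, 178 and 177 CPM (counts scaled to library size after TMM normalization) in WT samples 3, 4 and 5, and 25.1, 27.5 and 25.2 CPM in ARID1A-KO samples 3, 4 and 5. The genotypes did not overlap, and some transcript remained in the knockout samples. Of 9 osteoblast and mesenchymal markers, none was at 0 in all samples, and their summed level was 2649 to 3163 CPM in WT and 4275 to 4818 CPM in ARID1A-KO samples, most of it from VIM. Of the 6 tested, VIM was higher in ARID1A-KO cells, whereas the bone markers ALPL, SPP1 and COL1A1 were lower, at 9.68, 40.5 and 447 CPM in WT and 1.76, 14.7 and 322 CPM in ARID1A-KO samples on average (edgeR adjusted p = 0.000148, 0.00222 and 0.0129). RUNX2, the bone lineage transcription factor, had 15.0 CPM in WT and 14.6 CPM in ARID1A-KO samples on average and was not called. COL1A2, at 0.230 CPM in WT and 0.160 CPM in ARID1A-KO samples, was not called either, and SP7, IBSP and BGLAP were near 0. Summed markers of other cell types were low in every sample, at 5.45 to 7.95 CPM for 4 epithelial genes, 0.338 to 2.91 CPM for 4 blood cell genes, 1.72 to 2.40 CPM for 2 endothelial genes and 0.0899 to 0.193 CPM for 4 hepatocyte genes. The blood cell sum was lower in each ARID1A-KO sample (0.338 to 0.898 CPM) than in each WT sample (1.72 to 2.91 CPM), mostly through PTPRC. The part of these marker differences in the results was not tested.

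A full ABC transporter joins a pair of membrane domains to a pair of ATP-binding cassettes, and shorter members carry a single set and work as dimers. Many ABCA and ABCG proteins handle lipids and sterols, whereas ABCB1, ABCG2 and most ABCC proteins export drugs, conjugates and signalling molecules, and other members serve mitochondria, lysosomes and peroxisomes. ABCC8 and ABCC9 are not pumps but the sulfonylurea receptors of ATP-sensitive potassium (KATP) channels, and ABCE1 and the ABCF proteins have no membrane domain and work with ribosomes.

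Levels between genes were compared per transcript length, in the deposited TPM (a level per transcript length, scaled to the same sum in each sample). The ribosome-associated ABCF1 and ABCE1 led the family in WT cells, with means of 166 and 158 TPM, and they overlapped between samples. Below them stood ABCF2 with 55.6, ABCF3 with 55.0 and the peroxisomal ABCD3 with 44.3 TPM, of which ABCF2 and ABCF3 overlapped. The exporters ABCC1 and ABCC5, at 28.8 and 27.9 TPM in WT, also overlapped, as did ABCC4 and ABCB1 with 22.8 and 21.1 TPM. In the knockout samples, the last pair stood apart, with 36.98 TPM for ABCB1 and 9.69 TPM for ABCC4. ABCB1 thus went from place 10 to place 7 in the family, and ABCC4 from place 9 to place 13. ABCA3 went from place 29 to place 18, and ABCC9 from place 18 to place 24, at 4.02 TPM in WT and at 2.50 TPM in the knockout cells. These places rest on means and are not exact. ABCC9 overlapped with ABCC2, ABCC3 and ABCA13 in WT and with ABCA7, ABCA13, ABCB9 and ABCB4 in the knockout. In the knockout, ABCB1 also overlapped with ABCD3, and ABCC4 with ABCA2, ABCD4 and ABCC10. ABCA3 overlapped there with ABCA7, ABCA13, ABCC2 and ABCC3. In WT cells, 6 members were over 30 TPM, 6 between 10 and 30, 17 between 1 and 10, and 17 under 1 TPM. The members together held 729 to 746 TPM in WT and 695 to 705 TPM in ARID1A-KO samples, and ABCF1 and ABCE1 made up 43.8% to 45.7% of this sum.

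**Figure D1:**
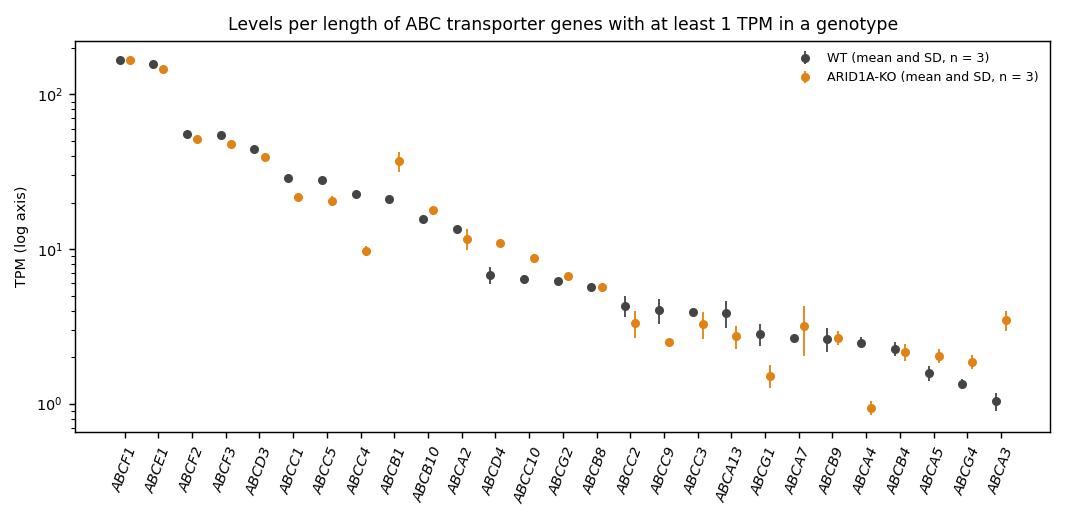
Mean deposited TPM (log axis, bars SD, n = 3) of the ABC transporter genes reported here with at least 1 TPM in a genotype, ordered by the WT level, for WT (dark) and ARID1A-KO (orange) cells. ABCF1 and ABCE1 led in both genotypes, and ABCB1, at 21.1 TPM in WT and 36.98 TPM in the knockout, stood above ABCC4 in the knockout.

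Of the 46 members, 40 had enough counts to be tested, and 20 of these (50.0%) were differentially expressed at the threshold of 0.05 on the p-value of the quasi-likelihood test in edgeR, adjusted by Benjamini-Hochberg over all genes tested. Over all 19599 genes tested, 36.2% were differentially expressed. 10 members were higher in ARID1A-KO cells, beside 17.8% of all genes, and 10 were lower, beside 18.4%. The changes reached 2-fold for 3 higher members (ABCA3, ABCC8 and ABCC12) and 4 lower members (ABCA1, ABCA4, ABCA12 and ABCC4). Over all 19599 genes tested, 953 genes called higher and 1160 called lower reached 2-fold. The median log2 fold change of the tested members was -0.11 and that of all genes tested 0.0066, and the members ran from -2.27 for ABCA12 to 1.84 for ABCC8. The CPM of the genotypes did not overlap for 23 members, 11 up and 12 down, beside 49.5% of all genes tested. The median size of change without regard to direction was 0.41 on the log2 scale for the members and 0.27 for all genes. Of the 20 calls, 14 held in each alternative setting in which the gene was tested, other than a threshold of 0.01 and a minimum change of 1.5-fold, which kept 14 and 13 of the 20 calls. With single samples left out, there were between 15 and 21 calls, beside 5285 to 7050 of all genes.

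**Figure D2:**
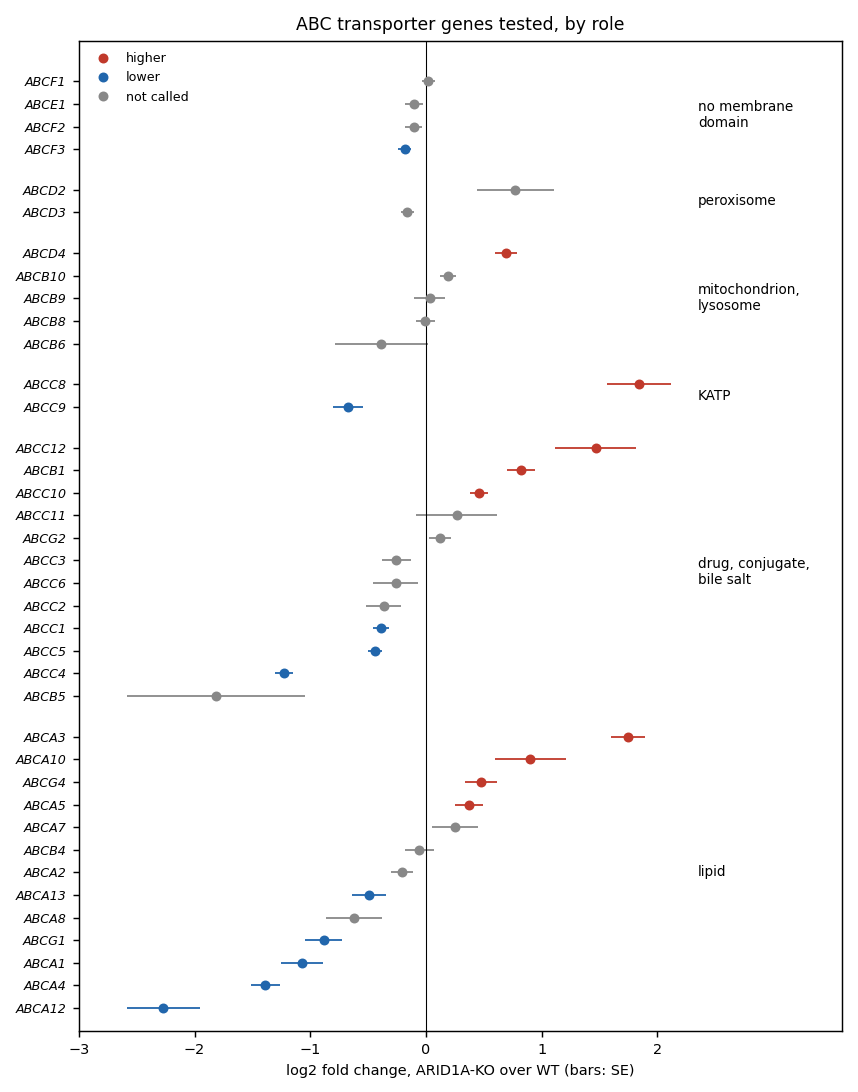
Log2 fold change between ARID1A-KO and WT cells (x axis, bars SE) of the tested ABC transporter genes reported here, grouped by role, with genes called higher in red, called lower in blue and not called in grey. The lipid group spans from -2.27 (ABCA12) to 1.75 (ABCA3), and the ribosome-associated group lies close to 0.

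The KATP receptors changed in opposite directions. ABCC9 encodes SUR2, the receptor of muscle and vascular KATP channels, and lies on the minus strand of chromosome 12 from 21950335 to 22094336 in GRCh37 (ENSG00000069431.6). It had 12.1, 12.9 and 17.0 CPM in WT samples 3, 4 and 5, and 9.14, 8.35 and 8.76 CPM in the ARID1A-KO samples. All knockout samples were below all WT samples, and the WT samples were further apart (SD 2.64) than the knockout samples (SD 0.392). The log2 fold change was -0.68 (SE 0.13, 95% interval -0.93 to -0.42, edgeR adjusted p = 0.00357), a level 1.60-fold higher in WT cells. With single samples left out, ABCC9 kept its call. The 39 other tested genes within 5 Mb of it moved by -0.37 in the median, and with that median taken off, ABCC9 was at -0.31 with an edgeR adjusted p of 0.104, so that the call was lost.

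ABCC8 encodes SUR1, the receptor of pancreatic and neuronal KATP channels, and was close to the detection limit. It had 0.225, 0.282 and 0.189 CPM in WT and 0.734, 1.11 and 0.716 CPM in ARID1A-KO samples, which did not overlap and stand for 11 to 63 counts per sample. Its log2 fold change was 1.84 (SE 0.28, edgeR adjusted p = 0.000871). The pore subunits were measured beside their receptors. KCNJ11, which encodes Kir6.2 and lies 3.55 kb from ABCC8 on chromosome 11, had 2.53, 2.63 and 2.92 CPM in WT and 5.96, 6.41 and 6.52 CPM in ARID1A-KO samples, with a log2 fold change of 1.22 (edgeR adjusted p = 8.39e-05). KCNJ8, which encodes Kir6.1 and lies 21.8 kb from ABCC9, had 6.07, 4.58 and 5.88 CPM in WT and 4.91, 5.00 and 6.91 CPM in ARID1A-KO samples. KCNJ11 was thus apart between genotypes, whereas KCNJ8 overlapped, with a log2 fold change of 0.03 (95% interval -0.30 to 0.36) that turned to -0.09 without WT replicate 4 and to -0.15 without ARID1A-KO replicate 5. The 36 other tested genes within 5 Mb of KCNJ8 had a median of -0.44. Over all alternative settings, including the one relative to these neighbours, KCNJ8 ranged from -0.15 to 0.47, with no edgeR or DESeq2 adjusted p below 0.0628. CCDC51, the mitochondrial KATP pore protein, was at 0.01 and was not called.

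ABCC9 was the only member with an AsiSI recognition site within 1 kb of its start, as 1 of 40 tested members (2.50%) beside 202 of 19599 tested genes (1.03%). The next nearest member was ABCD3, with a site 9338 bp from its start. The site is centred 345 bp inside ABCC9 at chr12:22093988-22093995 in GRCh37, and none of the 16 annotated transcripts over it has an exon in the window chr12:22093968-22094015. The plus strand of this intronic window is shown because it holds the recognition sequence of the nuclease this line carries, with the site in capitals.
ABCC9 intronic window: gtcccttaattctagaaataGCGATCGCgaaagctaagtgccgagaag

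Among the 17 lipid exporters and related ABCA and ABCG members, 13 were tested, and 4 were higher and 5 lower in ARID1A-KO cells. This was 69.2% of those tested, beside 36.2% of all genes tested. ABCA1, which loads cholesterol and phospholipid onto apolipoprotein A-I, had 1.71, 1.45 and 1.53 CPM in WT and 0.661, 0.673 and 0.875 CPM in ARID1A-KO samples. ABCG1, which passes sterols on to HDL particles, had 5.801, 5.61 and 4.33 CPM in WT and 2.59, 2.66 and 3.26 CPM in ARID1A-KO samples. For both sterol exporters, every knockout sample was below every WT sample. The log2 fold change was -1.07 for ABCA1 (SE 0.18, edgeR adjusted p = 0.00181) and -0.89 for ABCG1 (SE 0.16, edgeR adjusted p = 0.00241). ABCG4, a relative of ABCG1 known from the brain, had 2.43, 2.82 and 2.46 CPM in WT and 3.55, 3.29 and 3.85 CPM in ARID1A-KO samples. ABCG4 was apart in the other direction, with a log2 fold change of 0.48 and an edgeR adjusted p of 0.023. That p rose to between 0.0565 and 0.0771 without WT replicate 3 or 5 or without ARID1A-KO replicate 3 or 5.

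ABCA4, the retinoid flippase of photoreceptors, had 6.92, 6.02 and 6.75 CPM in WT and 2.48, 2.33 and 2.69 CPM in ARID1A-KO samples. ABCA3, which fills the lamellar bodies of lung cells with surfactant lipid, had 2.19, 2.37 and 2.87 CPM in WT and 7.37, 8.19 and 9.28 CPM in ARID1A-KO samples. The genotypes lay far apart for both genes, in opposite directions. The log2 fold change was -1.39 for ABCA4 (SE 0.13, edgeR adjusted p = 5.04e-05) and 1.75 for ABCA3 (SE 0.15, edgeR adjusted p = 3.31e-05), a 2.62-fold lower and a 3.35-fold higher level. ABCA17P, a pseudogene that overlaps ABCA3 on the opposite strand, had a mean of 0.159 CPM in WT and 0.610 CPM in ARID1A-KO samples.

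ABCA12, the ceramide carrier of the skin barrier, had 0.510, 0.423 and 0.670 CPM in WT and 0.0881, 0.109 and 0.125 CPM in ARID1A-KO samples. These stand for 30 to 39 counts per WT sample and 6 to 11 per knockout sample, without overlap, and the log2 fold change was -2.27 (SE 0.31, edgeR adjusted p = 0.000526). ABCA13, which encodes one of the longest ABC proteins, had 24.4, 17.0 and 23.8 CPM in WT and 14.3, 14.2 and 17.8 CPM in ARID1A-KO samples. It was the only called member whose genotypes overlapped, as ARID1A-KO replicate 5 was above WT replicate 4. Its log2 fold change was -0.49 (edgeR adjusted p = 0.0279, and between 0.0914 and 0.0992 without WT replicate 3 or 5 or without ARID1A-KO replicate 3 or 4).

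ABCA5 and ABCA10 belong to a row of related genes on chromosome 17 with ABCA6, ABCA8 and ABCA9. ABCA5 had 6.52, 6.93 and 5.62 CPM in WT and 8.55, 7.31 and 8.79 CPM in ARID1A-KO samples, without overlap. Its log2 fold change was 0.37 (edgeR adjusted p = 0.0403, and between 0.0809 and 0.122 without WT replicate 3 or 5 or without ARID1A-KO replicate 3 or 5). ABCA10 was called higher at a mean of 0.266 CPM in WT and 0.501 CPM in ARID1A-KO cells, with a log2 fold change of 0.90 (edgeR adjusted p = 0.0465). The call of ABCA10 was lost with DESeq2, with unstranded counts and when any sample other than ARID1A-KO replicate 4 was left out, with adjusted p-values between 0.0507 and 0.163 over these settings. ABCA5 and ABCA10 overlap on the same strand, so that reads from there cannot be told apart. ABCA8, at a mean of 0.429 CPM in WT and 0.275 CPM in ARID1A-KO cells, was at -0.62 without overlap but was not called (edgeR adjusted p = 0.0738, and 0.659 with unstranded counts). ABCA2, ABCA7 and the bile phospholipid floppase ABCB4 had log2 fold changes of -0.21, 0.25 and -0.06 and were not called. ABCA7 rested on ARID1A-KO replicate 5, at 10.9 CPM beside 5.82 to 7.48 CPM in the other 5 samples, and was at -0.04 without it. Without the same sample, ABCA2 was at -0.29 with an edgeR adjusted p of 0.0429.

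Of 11 cholesterol efflux genes and genes of the sterol-sensing receptor LXR, 10 were tested, and 3 were higher and 1 lower. These calls were 40.0% of those tested, beside 36.2% of all genes tested. SCARB1, the HDL receptor, was at 0.38, NR1H3, which encodes LXR alpha, at 0.35, and LPCAT3, a phospholipid-remodelling enzyme, at 0.29 on the log2 scale (edgeR adjusted p = 0.00926, 0.0168 and 0.0409). SMPDL3A, a phosphodiesterase induced by LXR, was at -0.42 (edgeR adjusted p = 0.0231). The call was lost for NR1H3 without WT replicate 3 or ARID1A-KO replicate 3 or 4 (adjusted p from 0.0646 to 0.0758), for LPCAT3 without WT replicate 3, 4 or 5 or ARID1A-KO replicate 5 (0.0694 to 0.108) and for SMPDL3A without WT replicate 3 or 4 or ARID1A-KO replicate 3 or 4 (0.0546 to 0.102). ABCA1 and ABCG1, textbook targets of LXR, and SMPDL3A were thus lower, while NR1H3, LPCAT3 and SCARB1 were higher. NR1H2, which encodes LXR beta, was at 0.15 and not called, with means of 63.5 CPM in WT and 70.6 CPM in ARID1A-KO samples. Neither SREBF1 at 0.34, RXRB at 0.09, RXRA at 0.03, APOE at -0.04 nor MYLIP at -0.21 was called. LXR activity was not tested.

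**Figure D3:**
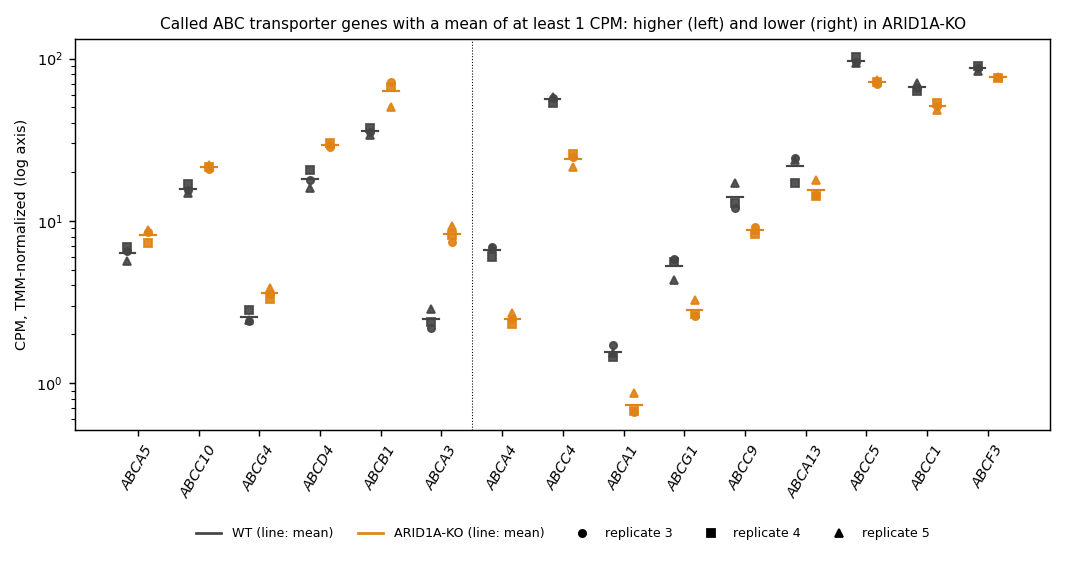
TMM-normalized CPM (log axis) of the called ABC transporter genes reported here with a mean of at least 1 CPM in each WT (dark) and ARID1A-KO (orange) sample, with a line at the mean of each genotype and the genes higher in ARID1A-KO left of the dotted line. The samples of the genotypes overlap for ABCA13 alone, and ABCB1 ranges from 50.1 to 71.9 CPM in the ARID1A-KO samples.

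The drug, conjugate and bile salt exporters held 13 members, of which 12 were tested, 3 higher and 3 lower (50.0% called, beside 36.2% of all genes tested). ABCB1, the multidrug exporter P-glycoprotein, had 35.5, 37.4 and 33.9 CPM in WT and 71.9, 67.1 and 50.1 CPM in ARID1A-KO samples. ABCC4, which exports cyclic nucleotides and prostaglandins, had 56.8, 53.5 and 57.6 CPM in WT and 24.6, 25.8 and 21.5 CPM in ARID1A-KO samples. The genotypes were apart for both exporters, and ARID1A-KO replicate 5 was the lowest knockout sample for both. The log2 fold change was 0.82 for ABCB1 (SE 0.12, edgeR adjusted p = 0.000792) and -1.23 for ABCC4 (SE 0.08, edgeR adjusted p = 8.71e-06), a 1.77-fold higher and a 2.34-fold lower level. The next gene to ABCB1, the bile transporter ABCB4, had 4.73 to 5.67 CPM in WT and 4.59 to 5.48 CPM in ARID1A-KO samples, which overlapped.

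ABCC1, the glutathione-conjugate exporter MRP1, had 65.6, 63.1 and 70.2 CPM in WT and 51.0, 53.2 and 47.8 CPM in ARID1A-KO samples. ABCC5, an exporter of nucleotide analogs and other organic anions, had 95.4, 102 and 94.4 CPM in WT and 69.6, 71.2 and 74.2 CPM in ARID1A-KO samples. ABCC10, a broad exporter of lipophilic drugs, had 15.4, 16.8 and 14.8 CPM in WT and 20.8, 21.6 and 22.2 CPM in ARID1A-KO samples. None of the 3 overlapped between genotypes, with ABCC1 and ABCC5 lower and ABCC10 higher in the knockout. The log2 fold changes were -0.39 for ABCC1 (SE 0.07, edgeR adjusted p = 0.00201), -0.44 for ABCC5 (SE 0.06, edgeR adjusted p = 0.000485) and 0.46 for ABCC10 (SE 0.08, edgeR adjusted p = 0.00187). ABCC12, whose substrate is not settled, was called higher at 0.174 CPM in WT and 0.474 CPM in ARID1A-KO cells on average, with a log2 fold change of 1.47 (edgeR adjusted p = 0.0101).

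The breast cancer resistance protein ABCG2 was at 0.12 on the log2 scale (95% interval -0.07 to 0.31) and was not called. Neither were ABCC2 at -0.37, ABCC3 at -0.25, ABCC6 at -0.26 and ABCC11 at 0.27. ABCC2 and ABCC3, organic anion exporters of the liver, had an edgeR adjusted p of 0.022 and 0.0191 without ARID1A-KO replicate 5, and ABCC2 of 0.0447 without WT replicate 4. ABCC6 has near-identical pseudogene copies, ABCC6P1 and ABCC6P2, with 274 and 102 counts over the 6 samples, so that its counts are uncertain. ABCB5, known as a marker of melanoma-initiating cells, had 1.71, 0.183 and 1.06 CPM in WT and 0.117, 0.0910 and 0.557 CPM in ARID1A-KO samples. Both genotypes were widely spread and overlapped, and the log2 fold change of -1.82 had an SE of 0.77 and an edgeR adjusted p of 0.096. ABCB5 was called without WT replicate 4 (-2.32, adjusted p = 0.0102) and without ARID1A-KO replicate 5 (-3.19, adjusted p = 0.0256). Of 10 xenobiotic response genes, 6 were tested, with 1 higher and 2 lower (50.0% called, beside 36.2% of all genes tested). GSTP1, a glutathione transferase, was at 0.39 (edgeR adjusted p = 0.00369), and the receptors NR1I2 (PXR) and AHR were at -2.65 and -2.07, each with a mean under 1 CPM in both genotypes.

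Among the mitochondrial and lysosomal members, 1 of 6 was called (16.7%, beside 36.2% of all genes tested). ABCD4, which carries cobalamin (vitamin B12) out of lysosomes, had 17.9, 20.4 and 16.0 CPM in WT and 28.5, 29.99 and 29.6 CPM in ARID1A-KO samples. It was apart between genotypes with a log2 fold change of 0.69 (SE 0.09, edgeR adjusted p = 0.000483), and the 102 tested genes around it had a median of 0.37. LMBRD1, its partner in lysosomal cobalamin export, had 28.4, 22.3 and 25.9 CPM in WT and 15.9, 15.3 and 18.2 CPM in ARID1A-KO samples. LMBRD1 was thus apart in the opposite direction, with a log2 fold change of -0.63 (edgeR adjusted p = 0.00173). It was the only called gene of 4 for cobalamin handling (25.0%). The mitochondrial ABCB10, which serves heme synthesis, had 20.3, 21.4 and 19.5 CPM in WT and 23.9, 23.1 and 23.0 CPM in ARID1A-KO samples. The genotypes did not overlap, but ABCB10 was not called, at 0.19 with an edgeR adjusted p of 0.0625. ABCB6, ABCB8 and ABCB9 were at -0.39, -0.01 and 0.03 and were not called. ABCB6 had means of 0.361 CPM in WT and 0.273 CPM in ARID1A-KO samples (SE 0.40, edgeR adjusted p = 0.488). It overlaps ATG9A on the same strand and ranged from -0.82 to -0.09 over the alternative settings. None of 9 iron-sulfur cluster and heme genes was called.

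The peroxisomal members move fatty acids across the peroxisome membrane. ABCD2, which carries very-long-chain and polyunsaturated acyl-CoA, had 0.884, 0.549 and 0.808 CPM in WT and 0.720, 1.24 and 1.83 CPM in ARID1A-KO samples, which overlapped, with a log2 fold change of 0.77 and an edgeR adjusted p of 0.0997 that was 0.0203 without ARID1A-KO replicate 3. ABCD3, the importer of branched-chain and dicarboxylic acyl-CoA, had 108, 101 and 101 CPM in WT and 91.6, 91.7 and 93.9 CPM in ARID1A-KO samples. ABCD3 did not overlap but was not called, at -0.16 with an edgeR adjusted p of 0.0544 (0.0496 with at least 10 counts in every sample). Of 7 peroxisomal fatty acid genes, 3 (42.9%) were lower and none higher, beside 36.2% of all genes tested that were called and 18.4% called lower. The 3 were the beta-oxidation enzyme HSD17B4 at -0.29 and the peroxins PEX3 and PEX19 at -0.25 and -0.19 (edgeR adjusted p = 0.0109, 0.0373 and 0.0362). The call was lost for PEX3 when any sample other than WT replicate 4 was left out (adjusted p from 0.0662 to 0.148) and for PEX19 when any sample other than ARID1A-KO replicate 3 was left out (0.0678 to 0.119).

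Of the 4 members without membrane domains, only ABCF3 was called (25.0%, beside 36.2% of all genes tested). It had 87.2, 90.0 and 84.3 CPM in WT and 77.1, 76.2 and 76.7 CPM in ARID1A-KO samples, without overlap and with little spread in the knockout. The log2 fold change was -0.18 (SE 0.06, edgeR adjusted p = 0.0277), and the adjusted p was between 0.0525 and 0.113 without WT replicate 3 or 4 or without ARID1A-KO replicate 3 or 4. ABCF3 overlaps EIF2B5 on the same strand, which was at -0.08 and not called. ABCE1, which splits ribosomes for recycling, had 301, 315 and 291 CPM in WT and 302, 286 and 256 CPM in ARID1A-KO samples and was at -0.10, with a 95% interval of -0.25 to 0.04. ABCF1, an initiation factor partner, had 223 to 235 CPM in WT and 229 to 238 CPM in ARID1A-KO samples and was at 0.02, with an interval of -0.09 to 0.13, and ABCF2 was at -0.11. Among 8 genes of ribosome recycling and initiation, 2 were higher and 3 lower (62.5% called). The eIF2 subunits EIF2S2 and EIF2S1 were at 0.69 and 0.24 and EIF2S3 at -0.33 (edgeR adjusted p = 0.000637, 0.0335 and 0.00362), and the rescue factor PELO was at -0.23 (edgeR adjusted p = 0.0262). The call was lost for EIF2S1 when any sample other than ARID1A-KO replicate 5 was left out (adjusted p from 0.0531 to 0.12) and for PELO without WT replicate 4 or 5 or ARID1A-KO replicate 3 or 5 (0.0517 to 0.0778).

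Outside the symbol rule, TAP1 and TAP2 encode the ABC peptide transporter of antigen presentation. TAP1 had 27.3, 29.9 and 44.8 CPM in WT and 52.5, 56.8 and 80.8 CPM in ARID1A-KO samples, and TAP2 had 28.0, 33.4 and 33.9 CPM in WT and 25.4, 25.3 and 27.6 CPM in ARID1A-KO samples. These partners were apart between genotypes in opposite directions, at 0.90 and -0.28 (edgeR adjusted p = 0.00762 and 0.0318). The call of TAP2 was lost without WT replicate 4 or 5 or without ARID1A-KO replicate 3 or 4 (adjusted p from 0.0808 to 0.114). CFTR, the chloride channel of the family, was not tested.

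The 6 members not tested were ABCA6, ABCA9, the bile salt pump ABCB11, the pseudogene ABCC13 and the sterol transporter pair ABCG5 and ABCG8. ABCG5 had no count in any sample and ABCG8 had 1 count, in ARID1A-KO replicate 4. A count of 0 allows a level of up to 0.0357 to 0.0550 CPM per sample (3 counts of the total, counting error only).

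Calls of members were set beside those of their neighbours, the other tested genes with a start within 5 Mb. For 14 of the 20 called members, the neighbours' median log2 fold change was within 0.2 of 0, and for 3 (ABCC4, ABCC9 and ABCD4) it was past 0.3 in the direction of the member. ABCC4 on chromosome 13 (95672083 to 95953687 in GRCh37) had 23 such neighbours with a median of -0.96, and with that taken off it was at -0.27 with an edgeR adjusted p of 0.0297. For ABCD4, the same step left 0.33 with an adjusted p of 0.0267. ABCE1, by contrast, lay among 41 genes with a median of -0.53, and relative to them it was at 0.42 (edgeR adjusted p = 0.00244). ABCC2 had 126 neighbours with a median of 0.40 and was at -0.77 relative to them (edgeR adjusted p = 0.00488). ABCC5 and ABCF3 shared neighbours at -0.23, and ABCF3 was at 0.04 relative to them.

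**Figure D4:**
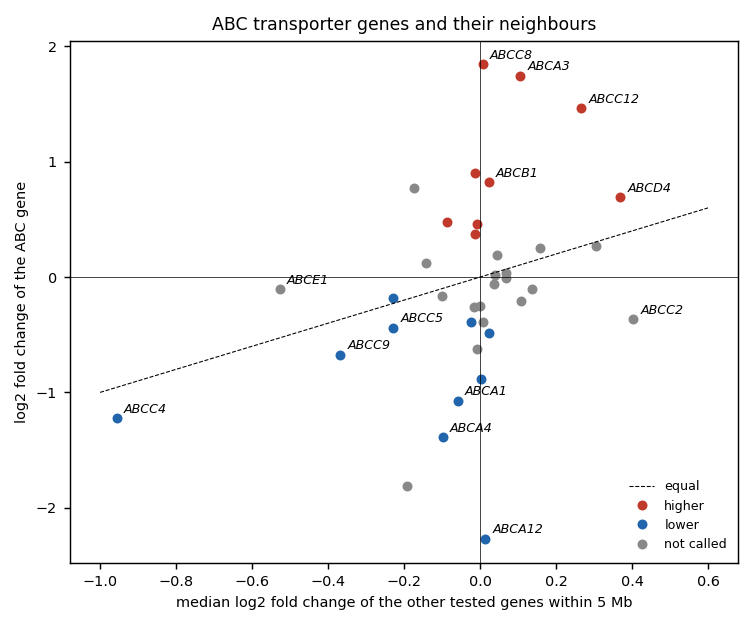
Log2 fold change of each tested ABC transporter gene reported here (y axis) against the median log2 fold change of the other tested genes within 5 Mb (x axis), with genes called higher in red, called lower in blue and not called in grey, and a dashed line where both are equal. Most members lie near 0 on the x axis, whereas the neighbours of ABCC4 have a median of -0.96, those of ABCC9 of -0.37 and those of ABCE1 of -0.53.

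Several members lie side by side in the genome, and 17 pairs were within 1 Mb of each other, 9 of them with both genes tested. For each pair, the log2 ratio of the genes was compared between genotypes with a two-sided exact permutation test, for which 3 samples against 3 give no p below 0.1. This smallest p was reached by 6 of the 9 pairs, and after Benjamini-Hochberg adjustment over the 9 comparisons it was 0.15. ABCB4 and ABCB1, 23.4 kb apart on chromosome 7, had a mean log2 ratio of -2.79 in WT samples and -3.66 in ARID1A-KO samples (exact p = 0.1). ABCA4 and ABCD3, 297 kb apart on chromosome 1, went from -3.98 to -5.21 (exact p = 0.1). In the row on chromosome 17, the log2 ratio of ABCA8 to ABCA5 went from -3.89 to -4.91 and that of ABCA8 to ABCA10 from 0.74 to -0.84 (exact p = 0.1 each). The SD of the ABCA8 to ABCA10 ratio was 0.45 in WT and 0.51 in ARID1A-KO samples. ABCA8 had 15 to 31 counts per sample and ABCA10 had 10 to 43. Pairs in this row share genes and are not independent. ABCC1 and ABCC6, 5.85 kb apart, differed by -0.13 between genotypes (exact p = 0.5), ABCB8 and ABCF2 by 0.10 (exact p = 0.4), and ABCC12 and ABCC11 by 1.28 (exact p = 0.2).

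The RefSeq promoter table (GRCh38.p14) matched 35 of the 46 members, with 53 promoters. In the 250 bases before the start, read on both strands, the GC box GGGCGG was in 47.2% of the members' promoters and in 42.6% of all 35116, the CCAAT box CCAAT in 20.8% and 32.0%, the E-box CACGTG in 17.0% and 6.34%, the AP-1 motif TGANTCA in 9.43% and 6.57%, the TATA box TATAAA in 11.3% and 10.7%, and the cyclic AMP element TGACGTCA in 1.89% and 1.65%. Promoters of the same gene can overlap, and a match is only a run of letters. The promoters of ABCC9 and of ABCB1, ABCC4 and ABCA3, members whose place by mean TPM changed, are shown on the gene's strand, with matches in capitals. These are ABCC9 at chr12:21941427-21941676, ABCB1 at chr7:87600885-87601134 (the downstream promoter of the pair listed), ABCC4 at chr13:95301452-95301701 and ABCA3 at chr16:2340729-2340978, all on the minus strand.
ABCC9: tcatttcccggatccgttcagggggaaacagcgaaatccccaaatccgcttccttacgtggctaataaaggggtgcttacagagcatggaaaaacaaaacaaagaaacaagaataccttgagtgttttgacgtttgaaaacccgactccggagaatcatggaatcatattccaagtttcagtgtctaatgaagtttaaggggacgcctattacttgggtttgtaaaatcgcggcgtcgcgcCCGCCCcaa
ABCB1: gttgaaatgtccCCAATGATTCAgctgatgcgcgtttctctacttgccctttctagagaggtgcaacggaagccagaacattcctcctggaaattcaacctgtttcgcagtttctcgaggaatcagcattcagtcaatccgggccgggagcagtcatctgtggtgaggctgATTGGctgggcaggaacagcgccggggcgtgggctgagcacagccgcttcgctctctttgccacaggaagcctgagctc
ABCC4: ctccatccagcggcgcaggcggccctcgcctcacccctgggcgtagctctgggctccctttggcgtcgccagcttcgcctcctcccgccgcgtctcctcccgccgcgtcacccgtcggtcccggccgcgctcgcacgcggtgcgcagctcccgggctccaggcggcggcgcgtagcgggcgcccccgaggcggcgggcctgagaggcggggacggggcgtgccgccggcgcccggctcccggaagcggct
ABCA3: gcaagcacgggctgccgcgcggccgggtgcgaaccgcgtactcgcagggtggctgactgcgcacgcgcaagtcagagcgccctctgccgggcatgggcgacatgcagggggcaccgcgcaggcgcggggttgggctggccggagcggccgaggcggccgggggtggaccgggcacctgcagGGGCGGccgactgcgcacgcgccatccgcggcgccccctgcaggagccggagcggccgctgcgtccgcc
The ABCC9 window had a GC box on the opposite strand and 15 CpG, with 46.0% G and C. The ABCB1 window had 2 CCAAT boxes, 1 of them on the opposite strand and 1 sharing a base with an AP-1 motif, and 12 CpG. The ABCC4 window, with 42 CpG and 80.4% G and C, had no match, and the ABCA3 window had 1 GC box and 38 CpG. The median over all promoters was 11 CpG.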

How the data were processed

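AID-DIvA cells were measured by RNA-seq in 3 WT and 3 ARID1A-KO samples, grouped by the genotype in the labels. The authors aligned the reads to GRCh37 with STAR and counted read pairs per gene with featureCounts, and deposited whole-number counts, unstranded and for each strand, that are not normalized. TPM values, likewise deposited by the authors, were used here only for levels between genes. The labels give polyA RNA, whereas the protocol names a total RNA kit. Low reverse-stranded counts were removed by filterByExpr, and after TMM normalization the rest were tested over all 19599 genes with edgeR 4.0.16 under R 4.3.3 (quasi-likelihood test, all 6 samples, no covariate, adjusted p under 0.05). DESeq2 1.42.0 was an alternative, and permutation tests used SciPy 1.17.1. Standard errors are those of the log2 fold changes. The common biological coefficient of variation was 0.111.

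On simulated counts for 19599 genes with 200 changed, edgeR recovered 150 (112 of the 134 changed at least 2-fold), 0 of them with the wrong sign, and made 14 false calls, and DESeq2 recovered 149 with 29 false calls. In the data 36.2% of all genes tested were called, a far larger share than was changed here, so these rates may not carry over. No pair of replicates was as close as sampling noise (chi-square per gene 7.01 to 33.6). The first principal component held 78.0% of the variance and separated the genotypes.

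The members and the lists of related genes and markers were chosen with earlier results of these data known. Named with values in every sample were ABCC9 and each called member with a mean of at least 1 CPM, and from each list at most 4 called genes, the largest changes first. KCNJ8 and KCNJ11 were always named, other members were given by their values, and ABCA12, ABCB5, ABCC8, ABCD2, ABCD3, ABCE1, ABCB10, TAP1, TAP2 and LMBRD1 were shown by sample after their values were seen. The values of some members are not reported here, although all members are in the counts. Sequences came from RefSeq promoters (GRCh38.p14) and the GRCh37 genome, where transcripts were those of GENCODE. Alternatives were RLE normalization, DESeq2, other filters on low counts, unstranded counts, the replicate block, single samples left out, a threshold of 0.01, a change of at least 1.5-fold, and the neighbours' median within 5 Mb (at least 5 neighbours) taken off.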

Additional observations from a re-analysis of the deposited data

Results flagged for a closer look

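Counts on the forward strand, opposite to the strand used for the genes, were not part of the comparison. At ABCC11, which encodes an exporter of conjugates and lipophilic anions, scaled to the total of reverse-stranded counts as CPM, they had a mean of 6.19 CPM in ARID1A-KO samples (6.09, 5.999 and 6.47) and lay above the WT samples (4.06, 3.52 and 4.21). This difference was not tested. LONP2, which overlaps ABCC11 on the opposite strand, was higher in ARID1A-KO cells in its own counts, with a log2 fold change of 0.25 (edgeR adjusted p = 0.018).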

How the results depend on the processing

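The number of called members was 20 with RLE normalization, 19 with DESeq2, with unstranded counts and with at least 10 counts in every sample (ABCD3 gained, ABCA12 and ABCC12 not tested), 23 without a filter (ABCA2, ABCB5, ABCC2 and ABCD2 gained, ABCF3 lost) and 22 relative to the neighbours (ABCA2, ABCC2, ABCE1 and ABCF2 gained, ABCC9 and ABCF3 lost). Over all genes, 7069 of 19599 tested were called with RLE normalization and 6884 of 19597 with DESeq2. With unstranded counts 7213 of 21180 were called, and with at least 10 counts in every sample 6423 of 17480. Without a filter 8223 of 36390 genes were called, and relative to the neighbours 6286 of 19599. With the replicate block there were 21 calls (9 higher and 12 lower), beside 7477 of all genes. ABCA5 was lost there at an adjusted p of 0.0503, and ABCA2 and ABCB5 were gained. The deviations of same-numbered samples correlated at -0.21, 0.39 and 0.25, and those of differently numbered samples at -0.52 to 0.38. With 3 samples per genotype, these values cannot settle whether the numbers pair the samples. With an adjusted p under 0.01, 6 members were higher, and 9 related genes were called in place of 19 of 49 tested (38.8%). Over all genes, 4414 were called at that threshold in place of 7099. With a change of at least 1.5-fold, 13 members were called, 6 of them lower, with 6 related genes and 3798 of all genes. With each sample left out, between 12 and 14 related genes were called, beside 5285 to 7050 of all genes. Relative to the neighbours, the sign turned for ABCF3 (0.044), ABCE1 (0.42), ABCF1 (-0.018), ABCB9 (-0.037) and ABCC11 (-0.036). HSD17B4, NR1H3, SMPDL3A, EIF2S1 and PELO lost their calls relative to the neighbours (adjusted p = 0.0953, 0.0737, 0.0561, 0.611 and 0.0912), and LPCAT3 with unstranded counts (0.149). With single samples left out, the sign turned for members not called, which ranged from -0.14 to 0.0089 for ABCB4, from -0.058 to 0.031 for ABCB8, from -0.083 to 0.17 for ABCB9, from -0.028 to 0.51 for ABCC11 and from -0.036 to 0.44 for ABCA7, and for KCNJ8 (-0.15 to 0.12). The cause was not tested. Depth limits members under 1 CPM.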
